A study of Mus musculus with 51 samples.

Results

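The motile cilium and the sperm flagellum share an internal scaffold, the axoneme, and 70 of the 55401 genes in the count table carry a name of its parts. The members were taken by name alone: every gene called Dnah, Dnai, Dnaaf, Cfap, Rsph, Tekt or Drc followed by a number, without a hyphen. They comprised 15 axonemal dynein heavy chains (Dnah), the antisense transcript Dnah2os, 33 cilia and flagella associated genes (Cfap), 8 radial spoke head genes (Rsph), 5 dynein assembly factors (Dnaaf), 5 tektins (Tekt) and 3 genes of the nexin-dynein regulatory complex (Drc), and 0 genes named Dnai. They lay on 18 chromosomes, with 1 gene, Cfap47, on X.

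The RNA libraries numbered 30, 3 for every one of 10 groups, and came from mice of mixed 129Sv and C57Bl/6J background, to ask how loss or mutation of the transcription factor gene Dmrt1 changes the male gonad. At postnatal day 28 (P28), XY gonads were wild-type (Dmrt1+/+), heterozygous for the null allele (Dmrt1+/-), homozygous null (Dmrt1-/-) or carried 1 wild-type allele and 1 with the missense mutation R111G in the DNA-binding domain (R111G/+). At P3, gonads were Dmrt1+/-, Dmrt1-/-, R111G/+ or R111G/-, with no wild-type group. At P7, Sertoli cell preparations came from Dmrt1 f/f mice with Dhh-Cre and the reporter CAG-Stopflox-tdTomato, and controls were f/+ with the same transgenes, although their titles give Dmrt1 +/+. Dhh-Cre deletes Dmrt1 in Sertoli cells and in other cells that express Dhh, the preparations were enriched by depleting germ cells with antibody beads and pooled several mice, and every R111G animal descended from 1 founder. Nothing in the labels says that the libraries of a group came from separate animals, so p-values measure the spread between these libraries.

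In an axoneme, outer and inner rows of dynein motors slide the microtubule doublets, nexin-dynein links and radial spokes turn sliding into bending, a central apparatus coordinates the beat, and tektins and other proteins line the doublet walls. Assembly factors fold the dynein arms in the cytoplasm before transport. In the testis the axoneme is built in spermatids, the haploid cells that grow the flagellum, from transcripts that start to accumulate in meiosis, whereas Sertoli and granulosa cells carry a primary cilium without dynein arms. Spermatids first appear in the weeks between P3 and P28.

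Library totals ran from 5043838 to 12792811 counts. Dmrt1 itself was at 36.8 to 45.8 CPM (the count relative to library size, scaled by trimmed mean of M values over all 30 libraries) in wild-type, 31.4 to 64.1 in Dmrt1+/-, 0.172 to 0.46 in Dmrt1-/- and 48.5 to 75 in R111G/+ gonads at P28, 164.5 to 251.4 in P7 controls and 20.7 to 35.3 in P7 null cells. Of the libraries at P28, Dmrt1+/- replicate 3 stood apart by a low sum of 25 spermatid markers (7510 CPM, against 22990 and 28160 in the other heterozygous libraries). The library of Dmrt1-/- replicate 1 stood apart by 11 markers of the efferent duct and epididymis (255 CPM, against 6.86 and 19.3). A further library, R111G/+ replicate 1, stood apart by high somatic markers, with sums of 2410 CPM for 15 macrophage markers (977 and 1063 in the others of its group), 7950 CPM for 10 Leydig cell markers (3962 and 3938) and 3811 CPM for 12 stromal fibroblast markers (2163 and 2001). Results at P28 were also computed without the Dmrt1+/- and Dmrt1-/- libraries together and without the R111G/+ library. Scaling mattered as well: with factors from 4 lists of somatic markers (macrophage, endothelial, peritubular myoid and stromal fibroblast), which under the main scaling had medians of 1.67, 3.18, 0.44 and 2.97 in Dmrt1-/- against wild-type gonads, the median log2 fold change of all genes moved from -0.31 to -2.41 in Dmrt1-/- against wild-type gonads and from -0.17 to -0.90 in R111G/+ against Dmrt1+/- gonads.

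In wild-type P28 testes the members had a median of 82.1 CPM, and 64 of 70 reached at least 10 CPM and 31 at least 100 CPM. Dnah8, an outer arm heavy chain of sperm, was at 946, 1290.0 and 1483 CPM, the highest mean of the members. Cfap97, whose axonemal role is poorly defined, followed at 1160.2, 926 and 1199.7 CPM, and Dnah17, the partner outer arm chain of sperm, at 424, 556 and 566 CPM. Dnah8 and Cfap97 overlapped between libraries, so their order was not separated by the replicates. Together with Dnaaf1, a dynein assembly factor at 406, 568 and 442 CPM, these genes made up 31.0% of the summed member level.

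Long genes collect more counts, so levels of different genes were compared per kilobase of exon. On that scale the mean wild-type level was 233 CPM per kb for Tekt2, 212 for Cfap97, 210 for Rsph1, a radial spoke head gene, 182 for Cfap206, which docks a radial spoke in Tetrahymena, and 167 for Dnaaf1. Dnah8, with 26820 bases of exon, was at 46.2 CPM per kb. The tektins Tekt1 and Tekt4 were at 113 and 109 CPM per kb.

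**Figure D1:**
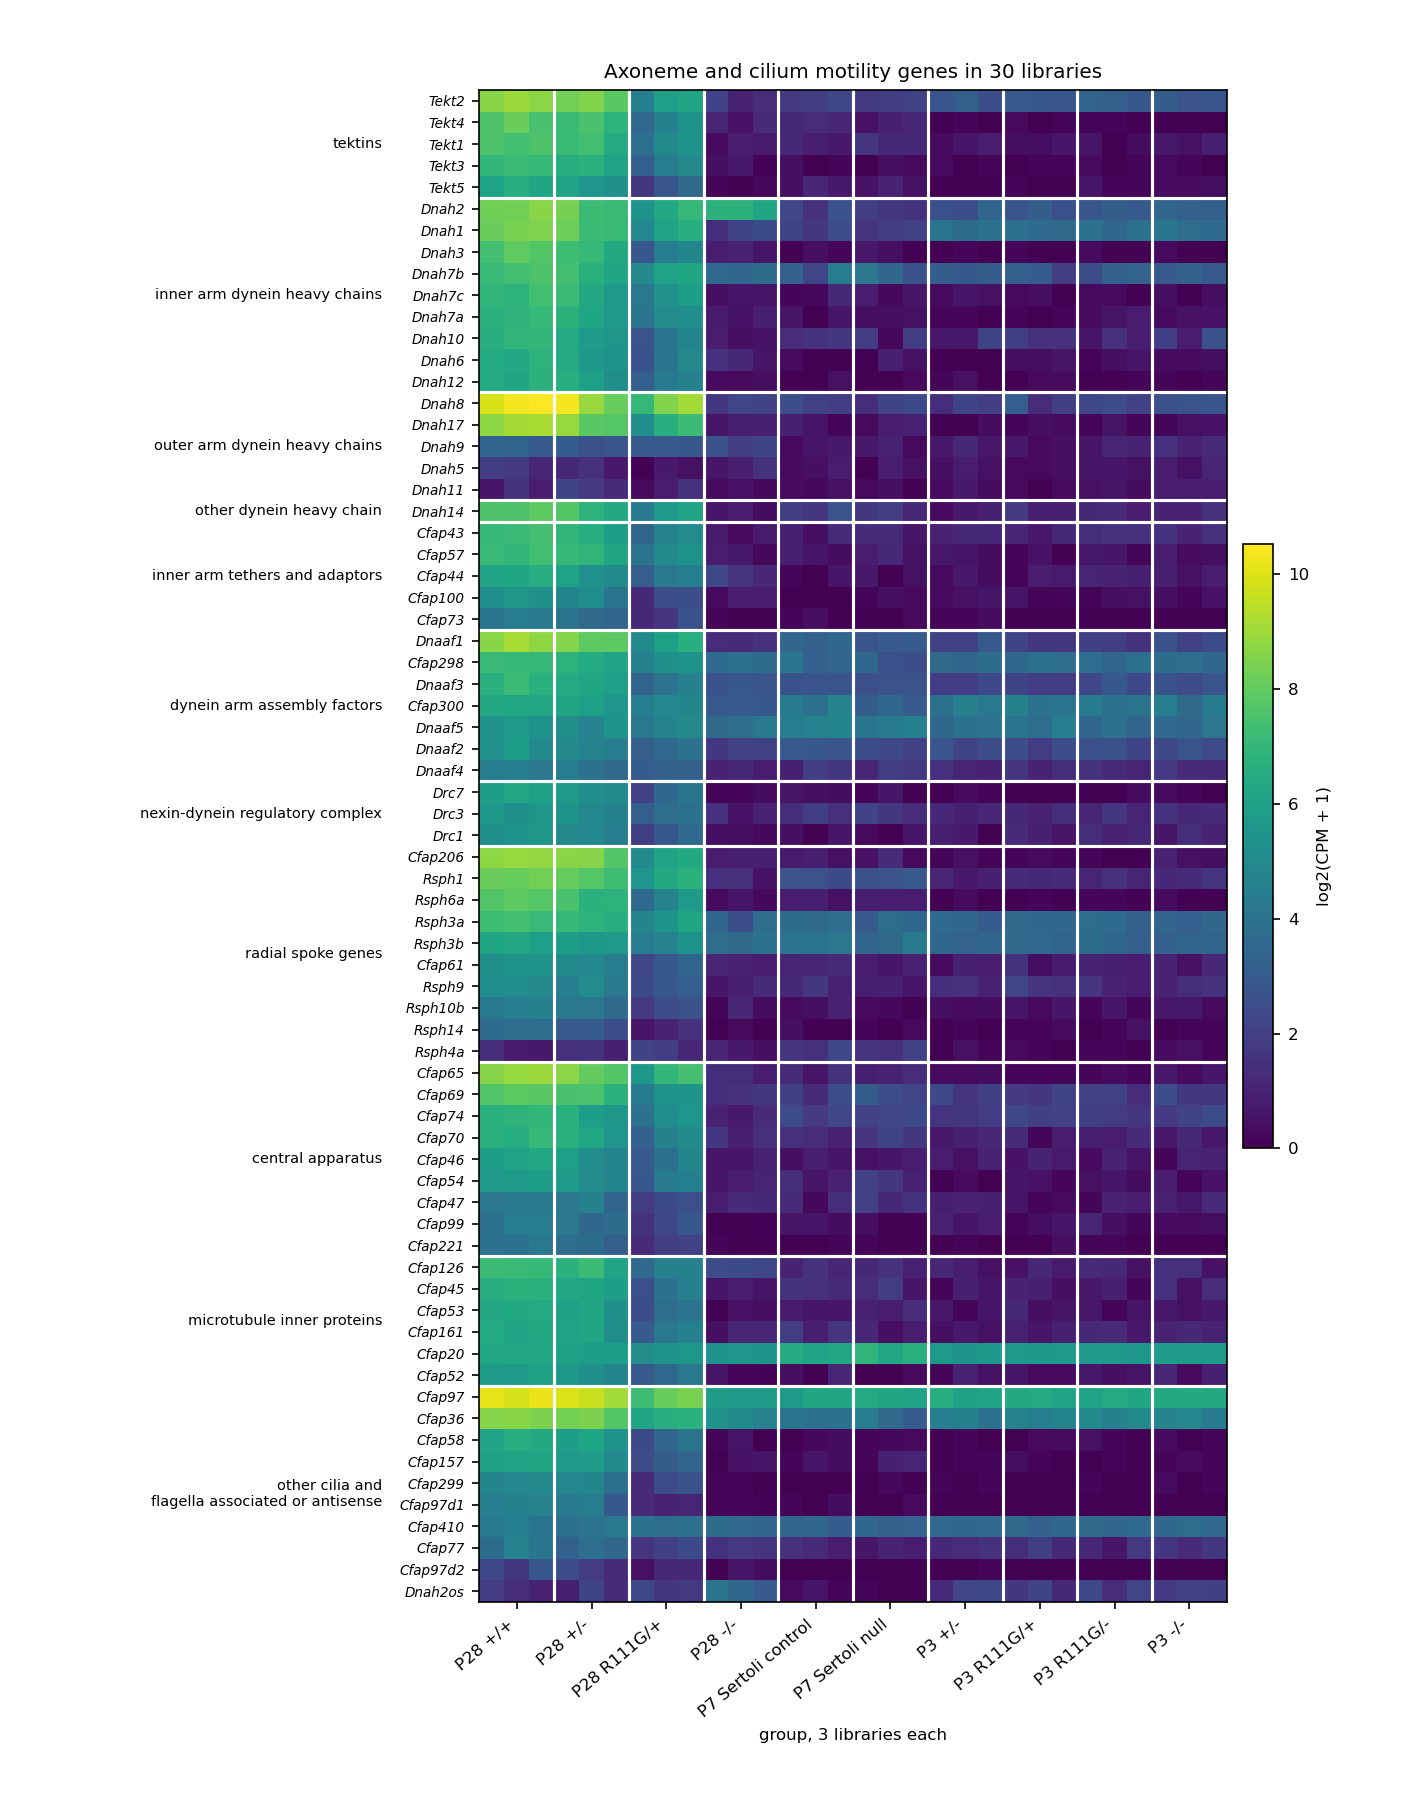
Level of each of the 70 members (rows, grouped by role) in each of the 30 libraries (columns, 3 to a group), as log2(CPM + 1) by colour. The wild-type and Dmrt1+/- columns at P28 are brightest, R111G/+ is intermediate, and the Dmrt1-/-, P7 and P3 columns are dark for most members, with Cfap97, Cfap20 and Cfap36 brighter in all of them and Dnah2 brighter in Dmrt1-/- at P28.

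The start regions of the members were examined for the X-box, the motif through which RFX transcription factors act on ciliary genes. RefSeq start regions (250 bases before to 50 after each start, GRCm38.p6) were matched for 57 of 70 members. The X-box half-site, spelled GTTGCC and searched on both strands, lay in 22 of the 57 member genes (38.6%), against 14.1% of 27025 genes with a region. The longer core GTTNCCATG lay in 6 (10.5%), against 2.22% of genes. A cAMP response element, TGACGTCA, lay in 1 (1.75%, Dnah6), against 2.03% of genes. The half-site and the longer core can overlap, and a match is a description of letters. Counted by window, 37.5% of 64 member windows held the half-site, against 12.5% of 32851 windows. Shown are 4 stretches that end at a start or lie close before one, each written 5' to 3' along the gene with the motif on either strand in capitals:
Tekt1, chr11:72361883-72361929, minus strand: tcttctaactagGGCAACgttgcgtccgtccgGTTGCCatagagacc
Cfap161, chr7:83794858-83794917, minus strand: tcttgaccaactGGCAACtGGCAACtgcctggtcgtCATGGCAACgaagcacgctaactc
Cfap52, chr11:67965643-67965670, minus strand: atgcgtgcgccaGTTACCATGacgacca
Drc1, chr5:30281370-30281392, plus strand: ctgctttcccttGGCAACggctt
Tekt1 held a half-site on each strand, Cfap161 (a microtubule inner protein gene) held half-sites beside a longer core, Cfap52 (another) held a longer core whose half-site differs from GTTGCC, and Drc1 held 1 half-site. All 4 genes fell in Dmrt1-/- gonads, with log2 fold changes of -8.32, -6.48, -8.05 and -7.21 against wild-type. Nearly all members fell there, so the fall of these 4 does not bear on the motif. Members with and without the motif were not compared. Tekt2, Dnah7a, Dnah7b and Dnah7c also held the half-site. So did Cfap20, which did not pass the fold limit.

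Almost the whole set was low in Dmrt1-/- gonads at P28. Against wild-type testes, 65 of 70 members were lower and 1 was higher (adjusted p below 0.05 by edgeR's quasi-likelihood test with Benjamini-Hochberg adjustment, and more than 2-fold), where 40.5% of all 20952 genes tested were lower and 26.1% higher. The median log2 fold change of the members was -6.76, beside -0.31 for all genes. The mean level in Dmrt1-/- gonads was a median of 0.914% of wild-type, under 1% for 36 members and under 10% for 59. Against Dmrt1+/- testes, 64 were lower and 1 higher (38.7% and 19.8% of all genes), with a median of -6.02 beside -0.28. Without the Dmrt1+/- and Dmrt1-/- libraries that stood apart, 64 were lower against wild-type and 65 against Dmrt1+/-. These 2 comparisons share the Dmrt1-/- libraries. In whole gonads, fewer cells of a type and less RNA per cell cannot be told apart.

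All 5 tektin genes fell, with a median of -8.32. Tekt2 was at 405, 501 and 421 CPM in wild-type, 316, 371 and 228 in Dmrt1+/- and 3.34, 1.05 and 1.55 in Dmrt1-/- libraries. Every null library lay far below the lowest control library (log2 fold change -7.84 ± 0.51 (SE), adjusted p = 1.9e-08 against wild-type). Tekt1 went from 192, 164 and 194 to 0.23, 0.739 and 0.689 CPM, again without overlap (log2 fold change -8.32 ± 0.51 (SE), adjusted p = 1.2e-08). Tekt5, named after its values were seen, had 3 counts over the null libraries against 1884 in wild-type, a ratio of 0.00126 (95% counting interval 0.000259 to 0.00369).

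Of the dynein heavy chains, all 9 of the inner arms fell (median -7.45). Dnah1, an inner arm chain required for the sperm flagellum, was at 279.5, 341 and 356 CPM in wild-type, 296, 150.2 and 138 in Dmrt1+/- and 1.61, 3.38 and 4.22 in Dmrt1-/- libraries. The null libraries did not overlap with either control (log2 fold change -6.71 ± 0.52 (SE), adjusted p = 7.3e-08 against wild-type). Dnah7a went from 106, 113 and 133 to 0.69, 0.422 and 0.861 CPM (log2 fold change -7.45 ± 0.45 (SE), adjusted p = 1.1e-08), with reads that its near-identical copies Dnah7b and Dnah7c may share. Of the 5 outer arm chains, those of sperm fell most. Dnah17 was at 0.46, 0.844 and 0.861 CPM in null libraries (log2 fold change -9.45 ± 0.64 (SE), adjusted p = 2.7e-08), and Dnah8 at 2.3, 3.8 and 3.53 CPM (log2 fold change -8.60 ± 0.75 (SE), adjusted p = 2.4e-07). The outer arm chains known from airway and other motile cilia were low in every group. Dnah9 was at 9.4, 9.1 and 6.83 CPM in wild-type and 5.18, 2.74 and 3.36 in null libraries (log2 fold change -1.18 ± 0.29 (SE), adjusted p = 0.0018), Dnah11 was called lower from a mean of 1.09 CPM, and Dnah5 overlapped (2.87, 2.44 and 1.21 against 0.575, 0.844 and 1.9 CPM). The Dnah9 call did not hold without Dmrt1-/- replicate 2, nor the Dnah11 call without wild-type replicate 2 or 3 or Dmrt1-/- replicate 1 or 3. Dnah14, a heavy chain of undefined arm, fell from 193, 190.0 and 238 to 0.575, 0.739 and 0.258 CPM (log2 fold change -8.65 ± 0.62 (SE), adjusted p = 3.8e-08).

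**Figure D2:**
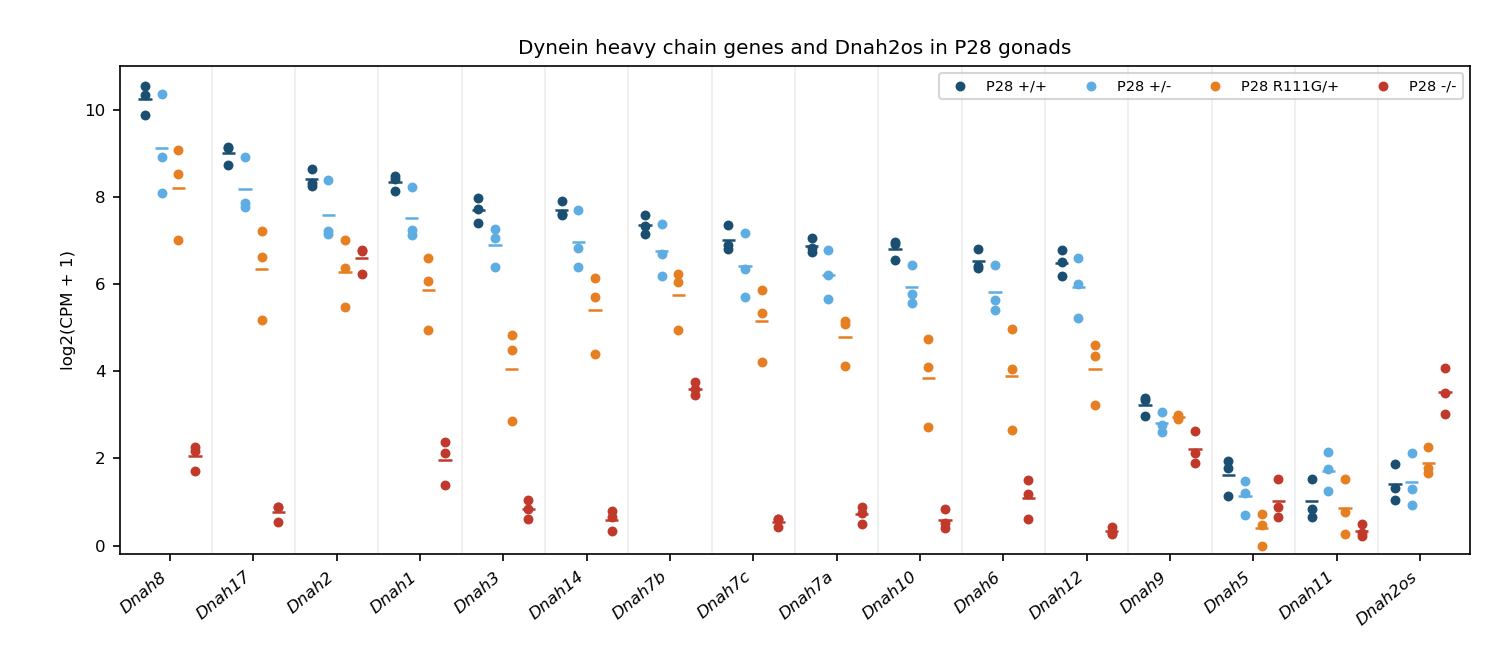
Level of the 15 dynein heavy chain genes and Dnah2os in the 12 P28 libraries, as log2(CPM + 1), with points for libraries and short lines for group means of the plotted values. Most Dmrt1-/- points lie far below the other groups, while those of Dnah2 lie among the R111G/+ points and those of Dnah2os above all other groups.

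The genes that hold or assemble the arms fell too. All 5 tethers and adaptors of the inner arms were lower (median -8.06). Cfap43, which tethers an inner arm in Tetrahymena and is needed for sperm flagella in mice, went from 131, 136 and 167 CPM in wild-type and 119.8, 93.4 and 59 in Dmrt1+/- to 0.69, 0.211 and 0.689 in Dmrt1-/- libraries (log2 fold change -8.06 ± 0.55 (SE), adjusted p = 2.8e-08). None of the null libraries reached 1 CPM. An exon of Cfap43 overlaps Itprip on the same strand in the annotation. Cfap57, an inner arm adaptor, went from 138, 126 and 164 to 0.805, 0.633 and 0.172 CPM (log2 fold change -8.11 ± 0.51 (SE), adjusted p = 1.4e-08). All 7 assembly factors fell, by less (median -3.91, from -8.24 to -1.65). Dnaaf1 was at 1.5, 1.37 and 1.81 CPM in null libraries (log2 fold change -8.24 ± 0.46 (SE), adjusted p = 7.4e-09). Dnaaf5, the least changed, went from 39.1, 52 and 39.8 to 11.4, 12.8 and 17.9 CPM, still without overlap (log2 fold change -1.65 ± 0.26 (SE), adjusted p = 5.7e-05).

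Links and spokes followed the same pattern. The 3 genes of the nexin-dynein regulatory complex were lower (median -7.21), with Drc7 from 56.9, 75.6 and 64.3 to 0.115, 0.105 and 0.258 CPM (log2 fold change -8.53 ± 0.66 (SE), adjusted p = 8.0e-08) and Drc3 from 47.9, 36.7 and 47.3 to 1.84, 0.422 and 0.948 CPM (log2 fold change -5.38 ± 0.40 (SE), adjusted p = 5.7e-08). Of 10 radial spoke genes, 9 were lower (median -5.37). Cfap206 went from 429, 479.9 and 448 to 0.805, 0.844 and 0.861 CPM (log2 fold change -9.07 ± 0.47 (SE), adjusted p = 5.3e-09), with null libraries all under 1 CPM. Rsph6a, the spoke head gene of sperm, went from 205, 243 and 218 to 0.23, 0.527 and 0.172 CPM (log2 fold change -9.47 ± 0.65 (SE), adjusted p = 2.8e-08). Its paralog Rsph4a, which serves airway cilia, was low throughout at 1.61, 0.679 and 0.67 CPM in wild-type and 1.15, 0.633 and 0.345 in null libraries, with overlap (adjusted p = 0.43). All 9 central apparatus genes fell (median -6.80). Cfap65 went from 395, 479.9 and 500.4 to 1.61, 1.58 and 0.775 CPM (log2 fold change -8.47 ± 0.55 (SE), adjusted p = 1.9e-08), and Cfap69 from 203, 237 and 229.9 to 1.61, 1.79 and 2.24 CPM (log2 fold change -6.88 ± 0.39 (SE), adjusted p = 7.8e-09). Cfap99 had 1 count over the null libraries against 426 in wild-type, a ratio of 0.00186 (95% counting interval 4.69e-05 to 0.0104).

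Among microtubule inner proteins, 5 of 6 fell (median -6.94). Cfap52 went from 55.9, 52 and 61.6 to 0.46, 0.105 and 0.0861 CPM (log2 fold change -8.05 ± 0.52 (SE), adjusted p = 1.7e-08), and Cfap126, also known as Flattop, from 147, 138 and 130.4 to 4.49, 4.11 and 3.88 CPM (log2 fold change -5.07 ± 0.34 (SE), adjusted p = 2.5e-08). Cfap20, an inner junction protein of the doublet, was the exception: 75.7, 79 and 76.2 CPM in wild-type and 41.3, 44.9 and 43.1 in null libraries, a separated but smaller difference (log2 fold change -0.85 ± 0.14 (SE), adjusted p = 6.8e-05). In the remaining 10 genes, 8 were lower (median -4.14). Cfap97 kept 59.7, 50.5 and 51.8 CPM in null libraries and Cfap36, a partner of the ciliary GTPase Arl3, kept 40.4, 31.8 and 24.2 CPM from 388, 406 and 349, although both were called lower (-4.36 and -3.58). Cfap157, a sperm axoneme gene, fell from 65, 69.6 and 72 to 0, 0.422 and 0.517 CPM (log2 fold change -7.66 ± 0.48 (SE), adjusted p = 1.5e-08). Cfap410, known from primary cilia, was at 18.5, 22.5 and 16.2 CPM in wild-type and 12.3, 11.2 and 9.56 in null libraries (log2 fold change -0.81 ± 0.20 (SE), adjusted p = 0.0018), under the fold limit.

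Of the 4 members neither lower nor higher, Cfap20 and Cfap410 were the ones with high counts, and both had like levels elsewhere (Cfap20 means of 47.1 CPM in P3 Dmrt1+/- gonads and 77.5 CPM in P7 control cells, Cfap410 means of 10.9 and 9.05 CPM). Under the scaling by somatic markers all 4 (Cfap20, Cfap410, Dnah5 and Rsph4a) were called lower, giving 69 of 70, and Dnah2os was no longer called higher. The remaining RNA in Dmrt1-/- gonads had another make-up than in testes. In CPM, without regard to exon length, Dnah2, Cfap97, Cfap20 and Cfap36 accounted for 60.2% of the summed member level. Dnah2 alone was 25.8% of that sum.

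**Figure D3:**
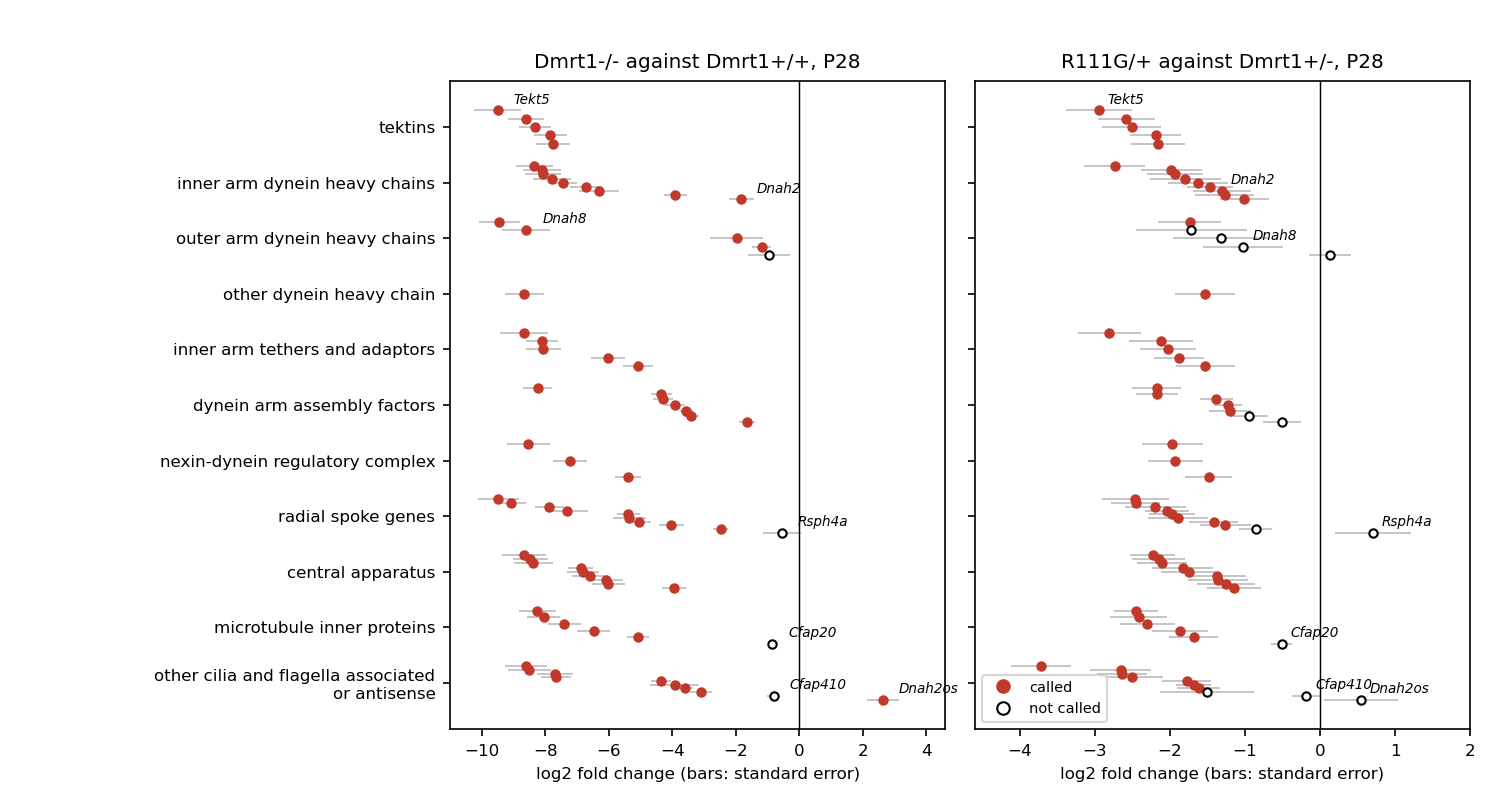
Log2 fold change of each member by role, for Dmrt1-/- against wild-type (left) and R111G/+ against Dmrt1+/- (right) P28 gonads, with bars for the standard error. Filled points passed the test and the 2-fold limit, open points did not, and the horizontal scales of the panels differ.

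Dnah2, an inner arm heavy chain, had the highest mean CPM of all members in Dmrt1-/- gonads at P28. Per kilobase of exon it was at 6.48 there, below Dnah2os (12.9), Cfap36 (11.7), Cfap97 (10.47), Cfap20 (9.69) and Cfap298 (7.90). It was at 303, 317 and 400.4 CPM in wild-type, 332, 148 and 139.9 in Dmrt1+/-, 108, 109 and 74.3 in Dmrt1-/- and 43.1, 81.4 and 129 in R111G/+ libraries at P28. The null libraries lay below every control library but within the R111G/+ range. It was called lower against wild-type (log2 fold change -1.83 ± 0.39 (SE), adjusted p = 6.8e-04) and against Dmrt1+/- (log2 fold change -1.09 ± 0.38 (SE), adjusted p = 0.020), and the call against Dmrt1+/- was lost without Dmrt1+/- replicate 1 or Dmrt1-/- replicate 3. P3 gonads had only 4.72 to 9.82 CPM in Dmrt1+/- and 8.01 to 10.0 in Dmrt1-/- libraries, so Dnah2 rose with age in null gonads (log2 fold change 3.49 ± 0.37 (SE), adjusted p = 3.7e-08). P7 Sertoli cells had 1.87 to 5.37 CPM in control and 1.91 to 2.83 in null libraries.

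The antisense transcript Dnah2os lies on the plus strand at chr11:69448548-69453676, inside Dnah2 (chr11:69420809-69549110, minus strand, GRCm38). It was the member that rose: 2.64, 1.49 and 1.07 CPM in wild-type, 0.924, 3.39 and 1.47 in Dmrt1+/-, 3.8, 2.16 and 2.46 in R111G/+ and 15.8, 10.3 and 7.15 in Dmrt1-/- libraries. All null libraries lay above all others (log2 fold change 2.64 ± 0.49 (SE), adjusted p = 2.3e-04 against wild-type, log2 fold change 2.55 ± 0.48 (SE), adjusted p = 3.0e-04 against Dmrt1+/-). With factors from somatic markers the first change was 0.63 (adjusted p = 0.19). Counting was by strand, which keeps reads of Dnah2 and Dnah2os apart. Both rose from P3 to P28 in Dmrt1-/- gonads, Dnah2os by 1.99 ± 0.47 (SE) on the log2 scale.

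The neighbours of Dnah2 on chromosome 11 moved in different directions. Kdm6bos, an antisense transcript, fell from a mean of 15.7 CPM in wild-type to 0.0926 CPM in Dmrt1-/- gonads (log2 fold change -7.14). Trp53 rose from 22.2 to 85.15 CPM (1.93), and both were called. Cyb5d1 (-0.22) and Wrap53 (0.20) were not called. Tmem88 (chr11:69396519-69398234) had a mean of 1.55 CPM in wild-type and 21.2 CPM in Dmrt1-/- gonads (log2 fold change 3.74, adjusted p = 4.3e-07). Kdm6b, which encodes a histone demethylase, had means of 71.1 and 147 CPM (1.03, adjusted p = 0.0015), and was not called against Dmrt1+/- (0.65, adjusted p = 0.025). The gene Efnb3, which encodes an ephrin, was at 6.24 and 6.84 CPM (0.12, adjusted p = 0.74), and Naa38 fell from 137 to 56.5 CPM (-1.29, adjusted p = 1.9e-04).

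One null allele of Dmrt1 gave no called member. In Dmrt1+/- against wild-type testes, 0 of 70 members and 0 of 20952 genes (0%) passed edgeR's quasi-likelihood test, DESeq2 called 0 members, and 10 members had an unadjusted p below 0.05. The estimates leaned one way: 67 of 70 were below 0 (median -0.57, beside -0.05 for all genes). In 32 members every heterozygous library lay below every wild-type library. That count and the 10 at an unadjusted p below 0.05 are for members alone, with no share of all genes given. The heterozygous libraries spread widely, with member sums of 9437, 6961 and 4849 CPM against 9804, 11000 and 11380 in wild-type. Replicate 3, the library with few spermatid transcripts, was the lowest of the 3 for 61 of 70 members. For Dnah8 the heterozygous values were 1316, 479 and 272 CPM, a range that reached into the wild-type libraries (adjusted p = 0.36).

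R111G/+ gonads held an intermediate level. Against Dmrt1+/- testes, which also have 1 wild-type allele, 58 of 70 members were lower and 0 higher, where 28.1% of all genes were lower and 6.72% higher. The median was -1.78, beside -0.17 for all genes, and the mean level was a median of 28.7% of Dmrt1+/- (quartiles 22.3 and 39.4). Against Dmrt1-/- gonads 60 members were higher and 1, Dnah2os, lower (27.6% and 10.1% of all genes), with a median of 4.20. In 63 of 70 members the group means ran in the order Dmrt1-/-, R111G/+, Dmrt1+/-, wild-type, and 56 members were lower than Dmrt1+/-, higher than Dmrt1-/- and lower in Dmrt1-/- than in wild-type. These comparisons share libraries, and the counts of 63 and 56 were made over the members alone, without a share of all genes. Without the Dmrt1+/- and Dmrt1-/- libraries that stood apart, 60 members were lower than Dmrt1+/- and 61 higher than Dmrt1-/-. Without R111G/+ replicate 1, the library with high macrophage, Leydig and stromal markers, the count lower than Dmrt1+/- was 47 and the median -1.32, and without Dmrt1+/- replicate 1 the count was 51. The part of the somatic markers in the decrease was not tested.

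Tekt2 was at 22.5, 60.2 and 70.8 CPM in R111G/+ libraries, below all Dmrt1+/- and above all Dmrt1-/- libraries (log2 fold change -2.58 ± 0.38 (SE), adjusted p = 1.6e-04 against Dmrt1+/-, 4.69 ± 0.47 against Dmrt1-/-). Dnah1 was at 29.6, 65.7 and 95.6 CPM (log2 fold change -1.63 ± 0.40 (SE), adjusted p = 0.0043) and Cfap43 at 9.65, 24.8 and 32.8 CPM (log2 fold change -2.02 ± 0.37 (SE), adjusted p = 7.0e-04). Both groups were separated from R111G/+ for these 3 genes. Across members, R111G/+ replicate 1 was the lowest of its group for 65 and replicate 3 the highest for 62.

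By role, the decrease against Dmrt1+/- was -2.51 in the median for tektins (5 of 5 lower), -2.08 for microtubule inner proteins (5 of 6), -2.02 for inner arm tethers and adaptors (5 of 5), -1.94 for radial spoke genes (8 of 10), -1.93 for the nexin-dynein regulatory complex (3 of 3), -1.74 for the central apparatus (9 of 9), -1.63 for inner arm heavy chains (9 of 9) and -1.23 for assembly factors (5 of 7). Cfap206 was at 31, 70.6 and 83.6 CPM (log2 fold change -2.46 ± 0.32 (SE), adjusted p = 7.8e-05), Rsph6a at 11.2, 25.3 and 51.2 CPM (log2 fold change -2.20 ± 0.41 (SE), adjusted p = 7.2e-04) and Drc7 at 3.12, 10.7 and 16.1 CPM (log2 fold change -1.97 ± 0.41 (SE), adjusted p = 0.0016). All R111G/+ values of these 3 genes lay below all Dmrt1+/- values. Cfap65, at 48.2, 123 and 171 CPM, was called lower (log2 fold change -1.37 ± 0.38 (SE), adjusted p = 0.0089), but not without R111G/+ replicate 1 or Dmrt1+/- replicate 1. The lowest share of Dmrt1+/- was that of Cfap97d1, a sperm axoneme gene named after its values were seen, at 1.37, 1.08 and 1.11 against 19.4, 20.7 and 6.5 CPM (7.64%, log2 fold change -3.72 ± 0.40 (SE), adjusted p = 2.9e-05).

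Outer arm heavy chains differed among themselves in R111G/+ gonads, with 1 of 5 lower. Dnah17 was called (35.4, 97.3 and 147 against 477, 231 and 215 CPM, log2 fold change -1.74 ± 0.42 (SE), adjusted p = 0.0042). Dnah8 was not: 129, 366 and 535 CPM against 1316, 479 and 272 in Dmrt1+/- libraries, which overlapped (log2 fold change -1.02 ± 0.53 (SE), adjusted p = 0.12). It was called lower without Dmrt1+/- replicate 3, the library with few spermatid transcripts, or without R111G/+ replicate 3. Against Dmrt1-/- gonads both were far higher (6.95 ± 0.61 and 6.71 ± 0.70). Dnah2 was at 84.4 CPM in R111G/+ and 97 CPM in Dmrt1-/- gonads (log2 fold change -0.22 ± 0.38 (SE), adjusted p = 0.65), although it was lower than in Dmrt1+/- (log2 fold change -1.31 ± 0.38 (SE), adjusted p = 0.012, lost without R111G/+ replicate 1 or Dmrt1+/- replicate 1). Cfap20 was at 36, 43.1 and 46.9 CPM (log2 fold change -0.51 ± 0.14 (SE), adjusted p = 0.0073) and Cfap410 at 14.6, 12.9 and 13.9 CPM (adjusted p = 0.45). Rsph4a was the one spoke gene above 0, at 3.41, 2.74 and 1.27 CPM against 1.66, 1.92 and 0.916 (adjusted p = 0.26).

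Spermatid and spermatocyte markers moved with the members. The summed level of the members was 9804 to 11380 CPM in wild-type, 4849 to 9437 in Dmrt1+/-, 1168 to 3231 in R111G/+ and 347 to 403 in Dmrt1-/- libraries. All 25 spermatid markers were lower in Dmrt1-/- than in wild-type gonads, with sums of 25150 to 28820, 7510 to 28160, 956 to 1562 and 90.7 to 95.5 CPM in the same order of groups and no marker at 0 counts. All 20 spermatocyte markers were lower as well, with sums of 6952 to 7805, 3988 to 6363, 1257 to 1915 and 21.1 to 24.9 CPM and 1 marker at 0 counts in Dmrt1-/- gonads. Over all genes, 40.5% were lower in Dmrt1-/- than in wild-type gonads. The 20 spermatogonial markers summed to 1647 to 1716, 1606 to 1646, 981 to 1054 and 272 to 394 CPM in the same order of groups. In R111G/+ against Dmrt1+/- gonads, 25 of 25 spermatid markers were lower (median -3.81) and 9 of 20 spermatocyte markers (median -0.93). Over all genes, 28.1% were lower in that comparison, and the median of the members was -1.78. Sums of 18 granulosa markers were 285 to 364 CPM in wild-type and 5112 to 5445 CPM in Dmrt1-/- libraries. The part of these shifts in the member levels was not tested.

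**Figure D4:**
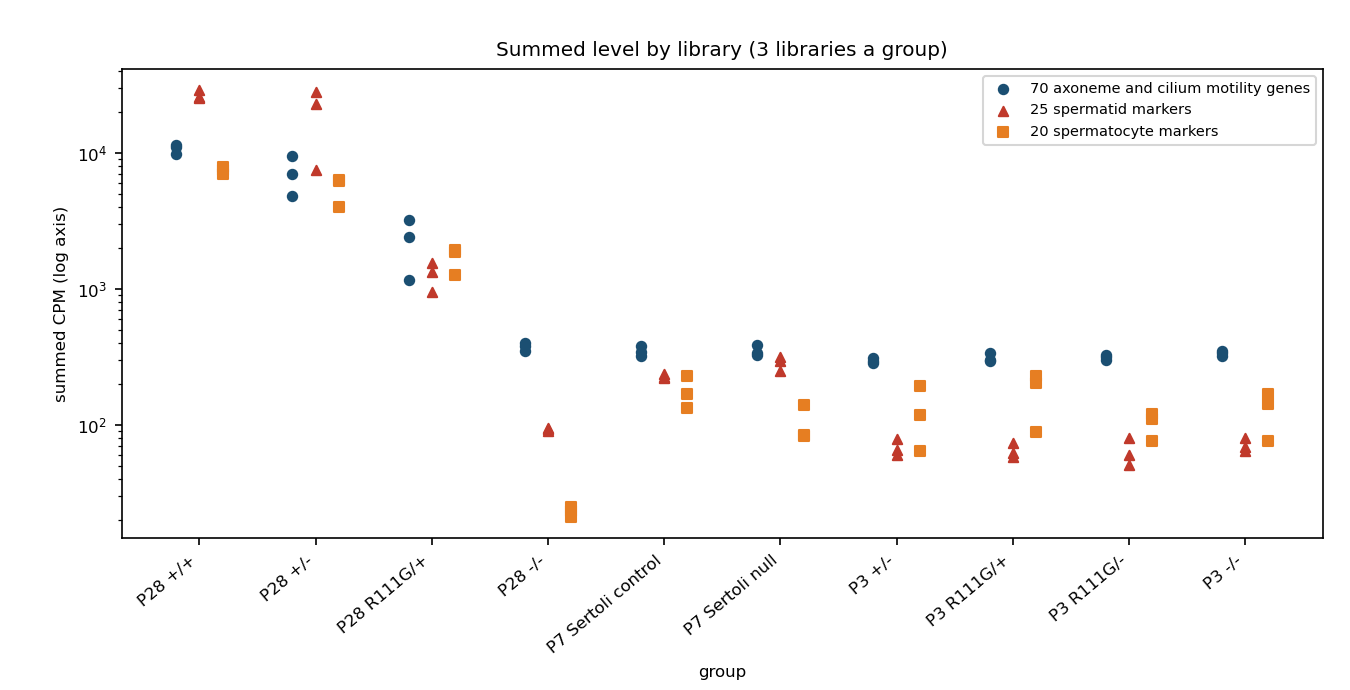
Summed level (CPM, log axis) of the 70 members, 25 spermatid markers and 20 spermatocyte markers in each library of the 10 groups. Members fall from 9804 to 11380 in wild-type to about the level of P3 gonads in Dmrt1-/- libraries, and in R111G/+ the spermatid markers lie lower against controls than the members do.

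Motile cilia of somatic ducts have the same axoneme. Of 14 markers of multiciliated cells, which include Rsph1 of the members, 9 were tested at P28, and 8 were lower and 1, Tppp3, higher in Dmrt1-/- than in wild-type gonads. Over all genes, 40.5% were lower and 26.1% higher. Foxj1, the regulator of motile cilia that spermatids also express, had means of 137 CPM in wild-type, 93.5 in Dmrt1+/- and 0.946 in Dmrt1-/- gonads, and was at 4.19 to 20.8 CPM in R111G/+ libraries. In Dmrt1-/- gonads 6 of the 14 were at 0 counts, among them Mcidas and Fam183b. The list summed to 52.0 to 67.5 CPM there, nearly all of it Tppp3 (mean 54.2 CPM), a tubulin-binding protein gene that is not specific to cilia. In Dmrt1-/- replicate 1, the library with epididymal markers, the member sum was 403 CPM, beside 378 and 347 CPM in the others.

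In isolated P7 Sertoli cells most members were low, and none was called between genotypes. In controls the median was 1.04 CPM, 9 members reached 10 CPM and 34 were under 1 CPM. The highest were Cfap20 (88.2, 68.3 and 76 CPM), Cfap97 (52.3, 73.2 and 71.3 CPM) and Dnaaf5 (21, 24.1 and 26.8 CPM), and in null cells Cfap20 was at 118, 76.7 and 101 CPM, Cfap97 at 84.8, 74.3 and 67 CPM and Dnaaf5 at 16.2, 20.0 and 23.9 CPM. All 3 overlapped between groups. Only 29 members had counts enough to be tested. Of these, 0 passed edgeR's quasi-likelihood test with the fold limit, where 4.56% of all 14013 genes did. In that test 1 member had an unadjusted p below 0.05, counted over the members alone with no share of all genes given. That gene was Cfap300, an assembly factor named after its values were seen, at 19.1, 13.9 and 25.5 CPM in control and 7.52, 10.7 and 7.08 in null libraries, without overlap (log2 fold change -1.21 ± 0.31 (SE), adjusted p = 0.059). DESeq2 called it, as did edgeR without P7 control replicate 2. The summed spermatid markers were 220 to 238 CPM in control and 248 to 315 CPM in null preparations, against 59.8 to 79.3 CPM in P3 Dmrt1+/- gonads. Other lists differed: spermatocyte markers summed to 134 to 227 CPM in control and 82.4 to 139 CPM in null preparations, 20 spermatogonial markers to 516 to 884 and 275 to 598 CPM, and stromal fibroblast markers to 52.1 to 327 and 376 to 936 CPM. The 14 multiciliated cell markers summed to 20.4 to 38.7 CPM in control and 111.2 to 120.1 CPM in null preparations, mostly Tppp3, while Foxj1 was at means of 1.07 and 0.789 CPM. Their part in the member levels was not tested.

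P3 gonads gave no called member in any genotype. Against Dmrt1+/-, 33 members passed the filter, and edgeR's quasi-likelihood test called 0 in Dmrt1-/- (0.511% of all genes), 0 in R111G/+ (0.133%) and 0 in R111G/- gonads (0.196%). DESeq2, which took in 69 members, also called 0 in each. In edgeR the unadjusted p was below 0.05 for 4, 1 and 3 members, counted over the members alone with no share of all genes given. The P3 comparisons share the Dmrt1+/- libraries. Tekt2 was at 5.71, 8.03 and 4.78 CPM in Dmrt1+/- and 7.62, 5.45 and 6.14 in Dmrt1-/- gonads, and Dnah1 at 15.8, 12.1 and 14.1 CPM against 16.7, 12.5 and 11.8 CPM. Cfap43 was at 0.972, 1.27 and 1.29 CPM in Dmrt1+/- and 1.94, 0.99 and 1.65 CPM in Dmrt1-/- gonads. Values of all 3 overlapped. Cfap97 (75.5 CPM), Cfap20 (47.1 CPM) and Cfap36 (20.1 CPM) had the highest means in Dmrt1+/-, and with Cfap300 made up 54.2% of the member sum.

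The genotypes diverged between P3 and P28. In Dmrt1+/- gonads 66 of 70 members rose with age and 0 fell (35.7% of all 21696 genes rose and 18.9% fell), with a median log2 fold change of 5.99, the same when the 3 members with no count at P3 were set to their lowest possible fold. Tekt2 rose by 5.6 ± 0.35 (SE), Dnah1 by 3.79 ± 0.34 and Cfap43 by 6.24 ± 0.42 on the log2 scale. In R111G/+ gonads 63 rose and 0 fell (27.4% and 13.7% of all genes), with a median of 4.24, or 4.00 with 5 such members at their bound. In Dmrt1-/- gonads only 7 rose and 6 fell (10.9% and 12.1% of all genes), with a median of 0.14, the same with 2 such members at their bound. That was 13 of 70 members called, where 23% of all genes were.

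The 7 that rose in Dmrt1-/- gonads were Dnah2, Dnah2os, Dnah3, Dnah9, Tekt4, Cfap44 and Cfap126, and the 6 that fell were Dnah1, Dnah10, Tekt2, Cfap74, Cfap300 and Dnaaf1. Several of the rises started from a few counts. Tekt4 had 0 counts at P3 and 30 at P28, so it was at least 8.55-fold higher with 3 counts over the P3 group as floor. Dnah3 had 2 and 23 counts, a P3 to P28 ratio of 0.102 (95% counting interval 0.0116 to 0.412), and its call was lost without Dmrt1-/- replicate 1 or 2 at P28 or replicate 2 or 3 at P3. The call of Cfap44 was lost without replicate 1 at P28 or replicate 2 at P3, and that of Dnah10 without replicate 2 or 3 at P28 or replicate 3 at P3. Cfap126 went from 1.69, 1.73 and 0.439 to 4.49, 4.11 and 3.88 CPM (log2 fold change 1.72 ± 0.43 (SE), adjusted p = 0.0024). Dnah1 fell from 16.7, 12.5 and 11.8 to 1.61, 3.38 and 4.22 CPM (log2 fold change -2.10 ± 0.38 (SE), adjusted p = 7.7e-05), Tekt2 from 7.62, 5.45 and 6.14 to 3.34, 1.05 and 1.55 CPM (log2 fold change -1.69 ± 0.39 (SE), adjusted p = 0.0011) and Dnaaf1 from 5.32, 3.09 and 4.5 to 1.5, 1.37 and 1.81 CPM (log2 fold change -1.42 ± 0.41 (SE), adjusted p = 0.0076). For these 3 genes the ages did not overlap. With factors from somatic markers, in a fit without the P7 libraries, the split was 2 higher, Dnah2 and Tekt4, and 22 lower. The median of the members turned to -0.89 there, beside -0.95 for all genes.

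**Figure D5:**
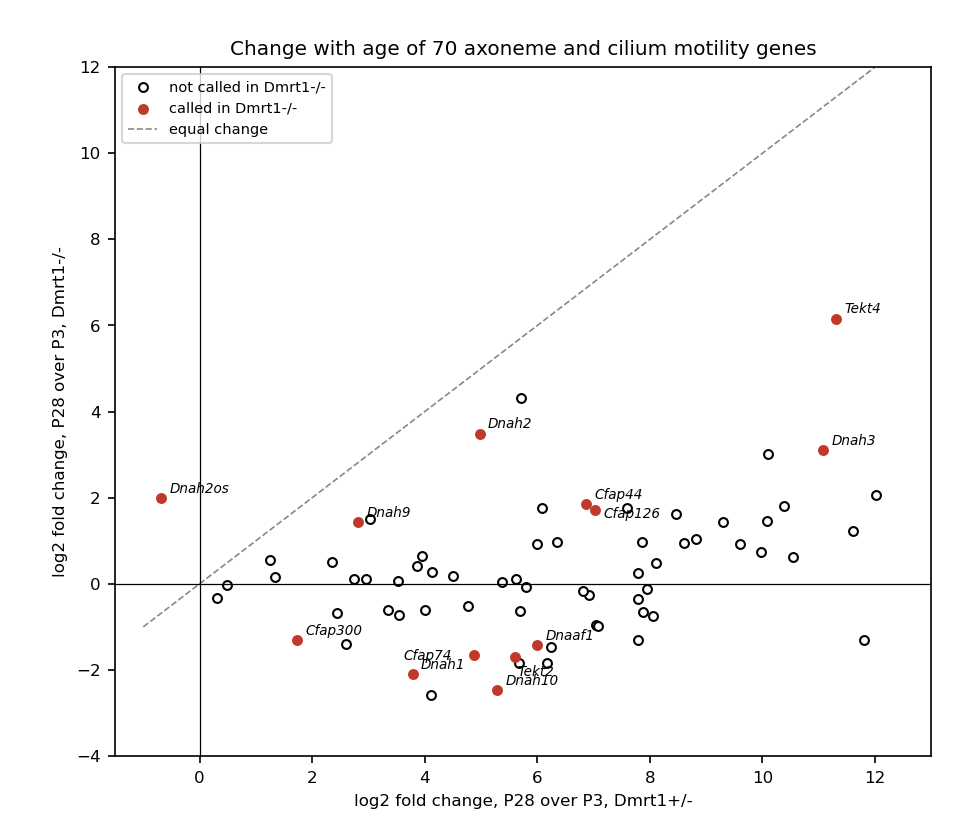
Log2 fold change from P3 to P28 of each member in Dmrt1+/- (horizontal) and Dmrt1-/- gonads (vertical), as fitted, with a dashed line for equal change. Red points were called in Dmrt1-/-, nearly all points lie far below the dashed line, and the fitted values of Tekt4 and Cfap97d2 rest on 0 counts at P3 in Dmrt1-/-.

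The difference between ages was itself tested in the fit of all 30 libraries. The effect of Dmrt1-/- against Dmrt1+/- was more negative at P28 than at P3 for 60 of 70 members and more positive for 1, Dnah2os (23.1% and 17.8% of all genes), with a median of -6.11. With factors from somatic markers, in a fit without the P7 libraries, 64 were more negative and Dnah2os was no longer called. For Tekt2 it was -7.29 ± 0.50 (SE, adjusted p = 2.8e-11), for Dnah1 -5.88 ± 0.51 (adjusted p = 7.7e-10) and for Cfap43 -7.70 ± 0.72 (adjusted p = 2.8e-09). The effect of R111G/+ against Dmrt1+/- was more negative at P28 for 25 members and more positive for 0 (9.24% and 4.15% of all genes), with a median of -1.67. That count rested on single libraries, being 15 without Dmrt1+/- replicate 1 at P28, 15 without Dmrt1+/- replicate 1 at P3 and 11 without R111G/+ replicate 1 at P3. Tekt2 was among the 25 (-2.59 ± 0.44, adjusted p = 2.4e-04), as were Dnah1 (-1.42 ± 0.45, adjusted p = 0.029) and Cfap43 (-1.80 ± 0.64, adjusted p = 0.0495), and the calls of Dnah1 and Cfap43 were lost in each of those 3 cases and without several other single libraries.

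Axoneme genes outside the naming rule moved the same way. Of 54 such genes, 53 were lower in Dmrt1-/- than in wild-type gonads (median -7.44) and 50 lower in R111G/+ than in Dmrt1+/- gonads (median -2.01). Meig1, which is needed for the flagellum through transport along the spermatid manchette, had mean levels of 715, 575, 116 and 1.11 CPM in wild-type, Dmrt1+/-, R111G/+ and Dmrt1-/- gonads (log2 fold change -9.33 ± 0.47 (SE), adjusted p = 4.7e-09 for the null). The exception was Dnal1, a dynein light chain gene (-0.22, adjusted p = 0.26). Over all genes, 40.5% and 28.1% were lower in these comparisons. Of 50 genes of intraflagellar transport and the primary cilium, 40 were lower and 3 higher in Dmrt1-/- gonads (median -2.03), and 18 were lower and 1 higher in R111G/+ gonads (median -0.89), a share not far from that of all genes. Their difference from the axoneme genes was not tested. Ift74, a transport subunit, had log2 fold changes of -3.51 and -1.5 in the same order, and Kif17, a kinesin motor that spermatids express, of -7.58 and -3.21.

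Regulators of ciliary and spermatid genes were measured as well. Of 18 tested, 11 were lower and 1 higher in Dmrt1-/- against wild-type gonads (median -2.87), and 8 lower in R111G/+ against Dmrt1+/- gonads (median -0.86), where 40.5% and 28.1% of all genes were lower. Sox30, a regulator of spermatid genes, had means of 226, 145, 26.1 and 1.07 CPM (-7.72 and -2.49). Rfx2, an RFX factor of spermatids, was lower in both (-5.92 and -2.0), while Rfx3, which acts in many ciliated cells, had log2 fold changes of -0.79 and -0.78, neither past 2-fold. Mybl1, a regulator of meiotic genes, fell in Dmrt1-/- gonads (-4.79) and was not called in R111G/+ (-0.93, adjusted p = 0.0052).

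The chromatin contacts analysed here were those of P7 Dmrt1-/- Sertoli cells, as 4291 interactions between anchors of 10 kb. An anchor lay in or within 10 kb of 29 of 70 members (41.4%), against 28.3% of 20915 genes tested at P28, and in the gene body of 34.3% against 20.0%. Axonemal dynein genes are long, gene length was not matched, and contacts of a control genotype were not analysed here. Dnah2, Dnah1, Dnah8, Dnah17, Tekt1 and Cfap43 were among the members with an anchor.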

How the data were processed

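Messenger RNA of gonads and P7 Sertoli cells was sequenced from stranded libraries. The authors trimmed reads with Trim Galore 0.6.0 and cutadapt 1.18, aligned them with STAR 2.7.2a to GRCm38 (mm10) and counted them by strand over GENCODE M25 with Rsubread. The deposited table holds raw counts per gene, 1 column per library, and 0 columns of values were left unmapped. The deposited list of Hi-C interactions holds anchor coordinates, used as a description. Positions came from GENCODE M21, which held 99.5% of the identifiers, and start regions from RefSeq.

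Counts were fitted in R 4.3.3 with edgeR 4.0.16 (filterByExpr by group, TMM factors, glmQLFit, quasi-likelihood F test), with 1 fit for the 12 libraries of P28, 1 for the 12 of P3, 1 for the 6 of P7, and 1 for all 30 libraries for changes with age and their differences. P-values were adjusted by Benjamini-Hochberg over all genes of a fit, and a gene was called at an adjusted p below 0.05 and more than 2-fold, the limits the study states without naming a tool. Standard errors were derived from the fold change and F. Counting intervals are exact 95% intervals and cover counting error only. Levels are TMM-scaled CPM, plotted with 1 added. Library totals of 5043838 to 12792811 counts limit precision for members under 1 CPM. Alternatives were DESeq2 1.42.0, its size factors within edgeR, library size alone, factors from 4 lists of somatic markers, no filter, no fold limit, a replicate block, other sets of libraries in the fit and leaving out each replicate. The factors from somatic markers were not applied at P7, and fits across ages with them left out the 6 P7 libraries. Leaving out the Dmrt1+/- and Dmrt1-/- libraries that stood apart was chosen after seeing the data. The code was tested on simulated data.

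Members and lists were chosen with earlier results of these data known. Named were Dnah1, Tekt2 and Cfap43; per role the member with the highest wild-type level and the one with the smallest adjusted p in Dmrt1-/- against wild-type gonads; members not called lower there, by level; members called at P7 or P3; the 5 largest and 5 smallest changes of R111G/+ against Dmrt1-/-; and the 3 highest members in P7 control cells and in P3 Dmrt1+/- gonads. Outside the members, Dmrt1 and up to 4 genes a list with the smallest adjusted p were eligible, and other members and genes were named after their values were seen. Near-identical copies (Dnah7a, Dnah7b and Dnah7c, Rsph3a and Rsph3b) may share reads.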

Additional observations from a re-analysis of the deposited data

Results flagged for a closer look

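The effect of genotype on the members differed between ages. By the test of the difference itself, a contrast in the edgeR quasi-likelihood fit of all 30 libraries, the effect of Dmrt1-/- against Dmrt1+/- was more negative at P28 than at P3 for 60 of 70 members. For R111G/+ against Dmrt1+/- the same test gave 25 of 70 members, a count that changed with single libraries and with the processing. Both contrasts share the Dmrt1+/- libraries of each age.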

How the results depend on the processing

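Reversal of the log2 fold change was checked for Dnah1, Tekt2 and Cfap43 in Dmrt1-/- against wild-type and R111G/+ against Dmrt1+/- gonads at P28. None reversed. Other genes and comparisons were not part of that check. At P7 the count went from 0 to 1, Cfap300, with no filter, with DESeq2, with all 30 libraries in the fit and without control replicate 2. The age comparison in Dmrt1-/- gonads went from 13 members to 24 with factors from somatic markers, where 2 were higher and 22 lower and the median turned from 0.14 to -0.89, and to 20 with no filter. Under that scaling, in a fit without the P7 libraries, the median of all 21377 genes was -0.95, with 914 called higher and 8916 lower. The share of member windows with the cAMP response element went from 1.56% to 0% in the 150 bases before the start. Of the 58 members lower in R111G/+ against Dmrt1+/-, library size alone kept 50 and a fit of only the groups compared kept 52. Of the 25 members with a more negative R111G/+ effect at P28 than at P3, these settings kept 17 and 16. No filter, DESeq2 and factors from somatic markers kept all 25 and added others. The causes were not tested.

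Leaving out 1 library at a time gave 64 to 65 members lower in Dmrt1-/- against wild-type, 63 to 65 against Dmrt1+/-, 47 to 62 lower in R111G/+ against Dmrt1+/-, 59 to 64 higher in R111G/+ against Dmrt1-/-, 0 to 1 at P7 and 0 at P3. With age it gave 65 to 66 in Dmrt1+/-, 11 to 14 in Dmrt1-/- and 62 to 63 in R111G/+ gonads. For the difference between ages it gave 52 to 59 for Dmrt1-/- and 11 to 29 for R111G/+.

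Replicate numbers were not used to pair the libraries in the main fits. Residuals of same-numbered libraries correlated at -0.39 to 0.36 at P28, -0.29 to 0.24 at P3 and -0.04 to 0.50 at P7. Those of differently numbered libraries correlated at -0.30 to 0.33, -0.29 to 0.25 and -0.43 to 0.15. At P7 the medians were 0.225 over 3 same-numbered pairs and -0.11 over 6 others, too few pairs to decide whether numbers pair the libraries. With a replicate block the counts were 64 and 65 for Dmrt1-/- against wild-type and Dmrt1+/-, 58 for R111G/+ against Dmrt1+/- and 60 against Dmrt1-/-, 0 at P7 and at P3, 66, 13 and 63 with age in Dmrt1+/-, Dmrt1-/- and R111G/+, and 60 and 24 for the differences between ages. Levels under 1 CPM, as for most members in Dmrt1-/- libraries at P28 and in all groups at P3, rest on few counts.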
